A study of Mus musculus with 4 samples.

Results

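The 10 genes described here encode the core transcription factors of heart muscle: Gata4, Gata6, Nkx2-5, Tbx5, Tbx20, Mef2a, Mef2c, Mef2d, Hand2 and Srf. They were picked by gene name from the 48432 gene rows of the authors' expression table, and all 10 were found once each. The rule uses no measured value, but the set was drawn up with earlier results of these data known. Polyadenylated RNA had been sequenced from cardiomyocytes isolated by Langendorff perfusion, in which enzyme solution is passed through the coronary vessels to release the muscle cells. There were 4 libraries in 2 groups. In the MHC control group (2 libraries) the only genotype given is MHC. The Rbfox2 OE group (2 libraries) carries the genotype RbFox2, and OE stands for overexpression of the splicing regulator RBFOX2, whose non-muscle isoform the series title names. Both groups have the strain label C57BL x FVB and were fed doxycycline for 3 days before the hearts were taken. The labels do not explain MHC. From knowledge of the published study, it stands for a transgene in which the cardiac alpha-myosin heavy chain promoter drives rtTA, the activator that doxycycline switches on. By that account both groups carry the transgene and induction is directed at cardiomyocytes, but the labels give the Rbfox2 OE mice only the genotype RbFox2. The labels give neither the age nor the sex of the mice, nor whether animals were pooled. The series asks what overexpression of this isoform does to the heart and its conduction.

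These factors act as a network. GATA4 and GATA6 are zinc-finger proteins, NKX2-5 is a homeodomain protein, TBX5 and TBX20 are T-box proteins, HAND2 is a basic helix-loop-helix protein, and the MEF2 proteins and SRF share the MADS domain. They bind side by side at the control regions of genes for contractile proteins, natriuretic peptides and ion channels, and many of them bind each other's genes. In the adult heart they maintain muscle gene expression, and TBX5 and NKX2-5 are also known for their roles in the conduction system.

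For each gene the authors' table gives 1 pooled FPKM value per group (mapped fragments scaled to transcript length and library size), a lower and an upper bound, and a status. Bounds are given in parentheses after each value. The level of confidence of the bounds is not stated, and no value per library is given, so no spread between replicates and no test between the groups was possible. The depth in reads is unknown. Genes were called separate when the lower bound of one group lay above the upper bound of the other. They were called 2-fold apart when the log2 ratio between the groups (overexpression over control, after adding 1 FPKM to both values) was at least 1 in size. A ratio computed in this way understates the change of low genes. All 10 factors had the status OK in both groups and a mean above 1 FPKM, the minimum used for the 11695 genes compared. Rbfox2, which checks the group labels, stood at 14.7 FPKM in controls (10.4 to 19.0) and at 293 FPKM under overexpression (214 to 373).

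Of the 10 factors, 0 had separate bounds and 0 were 2-fold apart. Among all genes compared, 16.0% had separate bounds and 17.0% were 2-fold apart. Among the 3584 genes whose mean lay within the range of the factors, from 11.8 to 65.3 FPKM, the shares were 17.5% and 19.9%. Over all genes compared, the calls split by direction into 6.66% higher and 9.33% lower with separate bounds, and 6.95% and 10% by the 2-fold rule. By both rules together, 5.27% of all genes compared were higher and 7.42% lower. With only 10 genes, a count of 0 is not read as a difference from these shares. The largest difference was that of Tbx20, a log2 ratio of -0.68, and 32.3% of all genes compared lay further from 0. The median size of the log2 ratio was 0.31 for the factors and 0.45 for all genes compared. The bounds set the precision of this. With the relative widths of its bounds kept, a factor would have needed to fall by a ratio of between 1.84 (Hand2) and 3.40 (Srf) to be called separate, so smaller changes could not have been told from none.

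**Figure D1:**
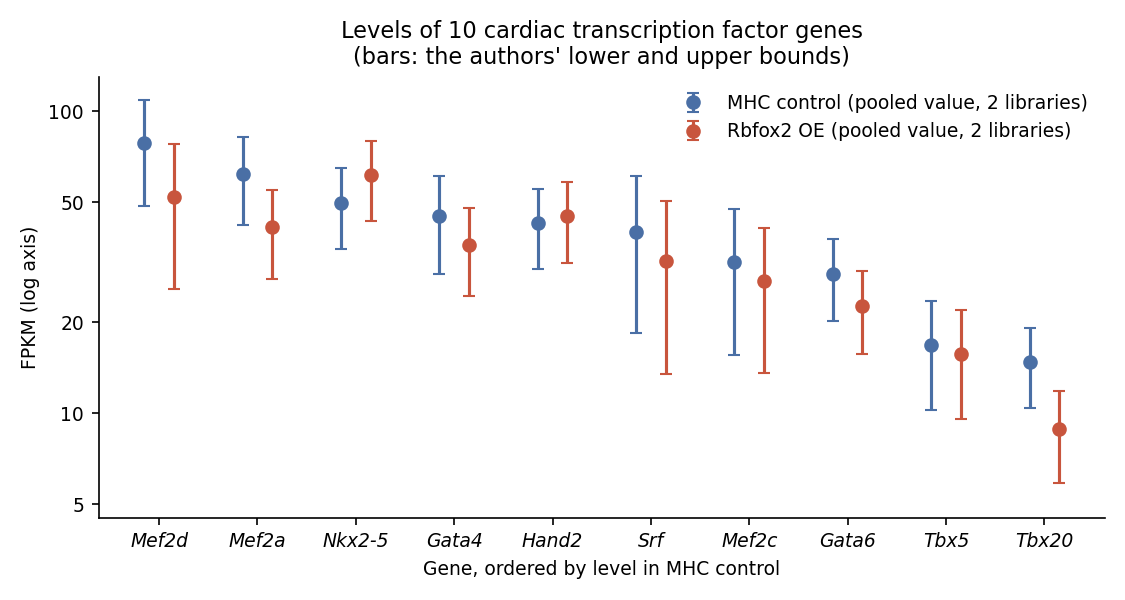
FPKM (log axis) of the 10 factors in controls and Rbfox2 OE, ordered by their level in controls. Points are the authors' pooled values of 2 libraries and bars their lower and upper bounds; the bars of the 2 groups overlap for all 10 genes, and least for Tbx20.

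GATA4 and GATA6 recognise the same short element and share many targets in heart muscle. Gata4 (ENSMUSG00000021944, GRCm38 chromosome 14, 63198922 to 63271692, minus strand) stood at 44.9 FPKM in controls (29.0 to 60.9) and at 36.1 FPKM under overexpression (24.5 to 47.8). Gata6 (ENSMUSG00000005836, chromosome 18, 11052064 to 11085635, plus strand) stood at 28.9 FPKM (20.2 to 37.7) and at 22.7 FPKM (15.7 to 29.6). Each pooled GATA value lay within the bounds of the other group, and the log2 ratios were -0.31 and -0.34. The balance of the pair hardly differed between the groups, with Gata4 taking 60.8% of their summed FPKM in controls and 61.5% under overexpression. With the bounds of both genes at their extremes those shares span 43.5% to 75.1% and 45.2% to 75.3%. Such a share does not depend on how the groups are scaled to each other.

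NKX2-5 marks the cardiac lineage and works together with the GATA and T-box factors. Nkx2-5 (ENSMUSG00000015579, chromosome 17, 26838664 to 26845009, minus strand) had the highest log2 ratio of the 10, 0.30. It stood at 49.8 FPKM in controls (34.9 to 64.8) and at 61.4 FPKM under overexpression (43.1 to 79.7), with each value inside the other group's bounds. By level it came after Mef2d and Mef2a in controls and before all the others under overexpression.

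TBX5 activates atrial and conduction genes, and TBX20 is needed for the adult heart muscle to keep its contractile and ion-transport genes on. Tbx5 (ENSMUSG00000018263, chromosome 5, 119832668 to 119885219, plus strand) stood at 16.8 FPKM in controls (10.2 to 23.5) and at 15.7 FPKM under overexpression (9.56 to 21.9), a log2 ratio of -0.09. Its values are thus nearly the same in both groups. Tbx20 (ENSMUSG00000031965, chromosome 9, 24718138 to 24774303, minus strand) stood at 14.7 FPKM in controls (10.4 to 19.1) and at 8.83 FPKM under overexpression (5.86 to 11.8). It was the factor closest to separation: each value lay outside the other group's bounds, and the bounds themselves met only between 10.4 and 11.8 FPKM. Tbx20 took 46.6% of the summed FPKM of the pair in controls (30.7% to 65.1% at the extremes of the bounds) and 36.0% under overexpression (21.1% to 55.3%). The spans of these shares overlap widely.

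The MEF2 proteins control contractile and metabolic genes of muscle and are held in check by class II histone deacetylases. Mef2d (ENSMUSG00000001419, chromosome 3, 88142372 to 88172086, plus strand) was the most abundant of the 10 in controls, at 78.8 FPKM (48.6 to 109), and stood at 51.9 FPKM under overexpression (25.8 to 77.9). Mef2a (ENSMUSG00000030557, chromosome 7, 67231163 to 67372858, minus strand) stood at 62.0 FPKM in controls (41.8 to 82.2) and at 41.2 FPKM under overexpression (27.8 to 54.6). The 2 genes had almost the same log2 ratio, -0.59 and -0.58. Both values of Mef2a lay outside the bounds of the other group, while the bounds themselves overlapped. Mef2c (ENSMUSG00000005583, chromosome 13, 83504034 to 83667080, plus strand) differed less, at 31.6 FPKM in controls (15.6 to 47.6) and 27.4 FPKM under overexpression (13.5 to 41.2), a log2 ratio of -0.20. Summed over the 3 genes, MEF2 stood at 172 FPKM in controls and 120.4 FPKM under overexpression. Their shares kept the same order in both groups, with Mef2d at 45.7% and 43.1%, Mef2a at 36.0% and 34.2%, and Mef2c at 18.3% and 22.7%. At the extremes of the bounds these shares span 27.2% to 65.5% and 21.2% to 65.4% for Mef2d. They span 21.1% to 56.2% and 18.9% to 58.2% for Mef2a, and 7.54% to 34.5% and 9.26% to 43.5% for Mef2c. By level, Mef2d lay separately above Mef2c in controls, and no other MEF2 pair was separate in either group. The table is at gene level, so it does not say which MEF2 isoforms were made, although alternative exons of these genes are known to differ between muscle and other tissues.

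**Figure D2:**
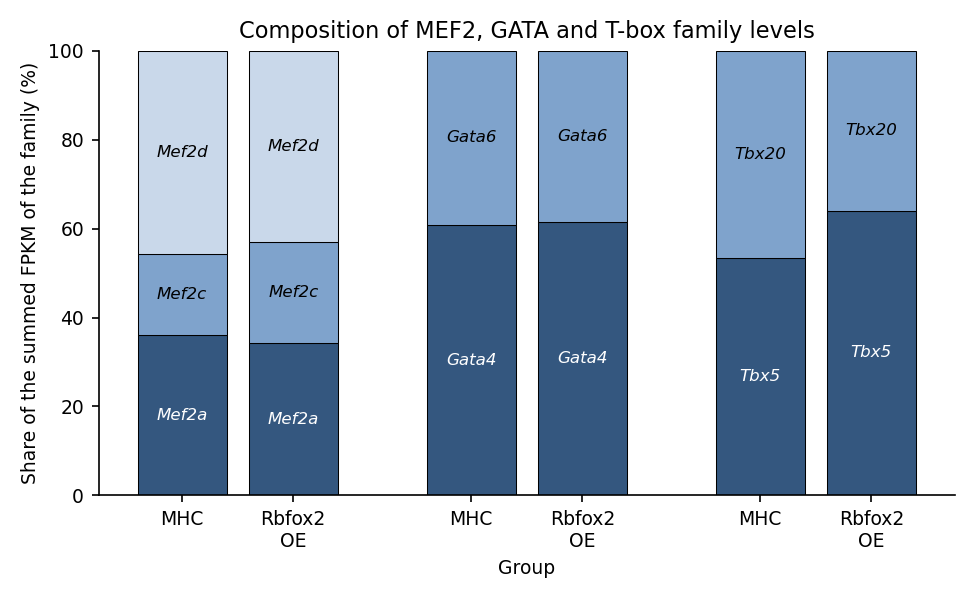
Share of each gene in the summed FPKM of its family (percent), for MEF2, GATA and T-box members in controls and Rbfox2 OE. The bars are nearly alike for MEF2 and GATA, and Tbx20 goes from 46.6% to 36.0% of the T-box pair.

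HAND2 is known for forming the right ventricle in the embryo and is also made by cardiac fibroblasts. Hand2 (ENSMUSG00000038193, chromosome 8, 57320983 to 57324633, plus strand) stood at 42.7 FPKM in controls (30.1 to 55.3) and at 44.9 FPKM under overexpression (31.5 to 58.3), a log2 ratio of 0.07. Its values were the closest of the 10 by ratio, and its bounds were among the narrowest.

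SRF binds the CArG box and, with its partner myocardin, drives contractile and cytoskeletal genes. Srf (ENSMUSG00000015605, chromosome 17, 46548329 to 46556175, minus strand) stood at 39.7 FPKM in controls (18.4 to 61.0) and at 31.96 FPKM under overexpression (13.5 to 50.4), a log2 ratio of -0.30. Its bounds were the widest of the 10, reaching 53.7% and 57.8% above the value. The table places Srf in a locus of 389 kb that it gives to 20 other genes, and the bearing of that on its value was not tested. SRF is known to act on its own gene, so the bases before its start are shown, at chr17:46556176-46556412. They come from the RefSeq promoter table (GRCm38.p6), run 5′ to 3′ on the minus strand and leave out bases covered by an annotated exon. Capitals mark CArG boxes, searched on both strands as exact matches to CCWWWWWWGG, where W is A or T.
Srf: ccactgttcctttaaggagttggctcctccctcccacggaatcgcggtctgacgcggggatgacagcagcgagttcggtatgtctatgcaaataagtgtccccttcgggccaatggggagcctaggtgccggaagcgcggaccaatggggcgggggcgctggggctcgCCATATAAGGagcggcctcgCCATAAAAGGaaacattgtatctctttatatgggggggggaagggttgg
The window holds 2 CArG boxes, 82 to 73 and 62 to 53 bases before the start, and 1.47% of all windows of 250 bases in that table hold at least 1.

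Several other factors also share their locus. The 20 genes placed with Srf are Pex6, Mrpl2, Mea1, Gnmt, Klc4, Ttbk1, Rrp36, Ptk7, Cnpy3, Gltscr1l, Ptcra, Cul7, Cul9, Dnph1, Ppp2r5d, 2310039H08Rik, Klhdc3, Rpl7l1, Gm26904 and Mir6976. Mef2a shares its locus with Lysmd4, on the opposite strand, at 9.70 FPKM in controls and 4.37 FPKM under overexpression, and with the near-silent Gm44667 and Gm44668. Gata6 shares its locus with 1010001N08Rik, a non-coding transcript on the opposite strand, at 6.414 and 5.999 FPKM. Mef2d shares its locus with the antisense 1700113A16Rik and Hand2 with Gm28063, each below 1 FPKM in both groups. Gata4, Nkx2-5, Tbx5, Tbx20 and Mef2c overlapped no other gene of the table. The strand setting of the counting is not given in the sources used here, so values of overlapping pairs are uncertain.

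Because FPKM is per length, the levels of the factors can also be compared with each other. In MHC control they ran from Tbx20 at 14.7 FPKM to Mef2d at 78.8 FPKM, with a median of 41.2 FPKM. In Rbfox2 OE they ran from Tbx20 at 8.83 FPKM to Nkx2-5 at 61.4 FPKM, with a median of 34.0 FPKM. The order in controls, from the top, was Mef2d, Mef2a, Nkx2-5, Gata4, Hand2, Srf, Mef2c, Gata6, Tbx5 and Tbx20. In Rbfox2 OE it was Nkx2-5, Mef2d, Hand2, Mef2a, Gata4, Srf, Mef2c, Gata6, Tbx5 and Tbx20, so the last 5 places were the same and only the upper places differed. Of the 9 pairs of neighbours in either order, 0 had separate bounds, and the changes among the upper places are within the bounds. Over all 45 pairs, 14 were separate in controls and 16 under overexpression. In both groups Tbx5 and Tbx20 lay separately below Mef2d, Mef2a, Nkx2-5, Gata4 and Hand2. The factors were well expressed among the genes compared: Mef2d exceeded 92.3% of genes in controls, and Tbx20, the lowest, exceeded 65.9% in controls and 54.5% under overexpression.

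The direction of the small differences depends on the scaling. As deposited, 8 of the 10 log2 ratios were below 0, against 53.8% of all genes compared and 59.5% of genes in the factors' range of levels, and the median was -0.31 for the factors and -0.06 for all genes. Rescaling both groups after removal of 37 mitochondrial genes and the top 10 genes by level raises the ratio of the FPKM values by 0.15 on the log2 scale, and with 1 FPKM added the shift varies somewhat from gene to gene. After rescaling, 7 factors were below 0, Tbx5 turned to 0.05 and the median of the factors was -0.16. Set against the median log2 ratio of 18 cardiomyocyte markers, which was -0.73, all 10 factors were above 0. On that scale, chosen after the data were seen, they ran from 0.05 for Tbx20 to 1.02 for Nkx2-5, with a median of 0.42, and Nkx2-5 alone had separate bounds and was 2-fold apart. The median of the factors thus lay below that of all genes and above that of the cardiomyocyte markers, while Nkx2-5 and Hand2 lay above both, and neither difference was tested.

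**Figure D3:**
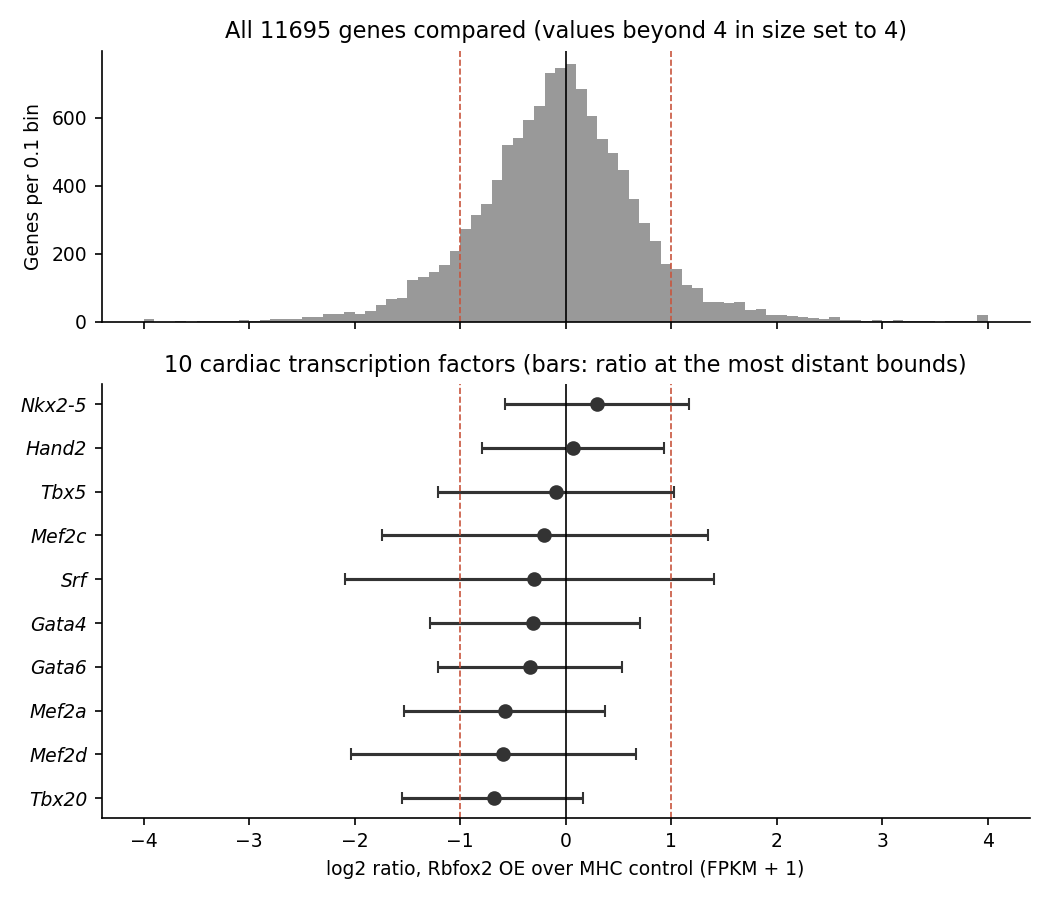
Top, number of genes by log2 ratio, overexpression over control (FPKM + 1), for the 11695 genes compared. Bottom, the same ratio for the 10 factors, with bars from the ratio of the lower bound over the upper bound to that of the upper over the lower; every bar crosses 0, and all points lie inside the dashed 2-fold lines.

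Markers of several cell types differed between the groups. Over all genes compared, 6.66% were higher and 9.33% lower with separate bounds, and the marker counts were not tested against these shares. Cardiomyocyte markers were present at high levels, summing to 84177 FPKM in controls and 51667 FPKM under overexpression, with 8 of the 18 compared lower with separate bounds and 0 higher. Myh6 and Mb, a defining myosin and myoglobin, are listed at 0 because they have no estimate. Fibroblast markers summed to 509 and 1017 FPKM (8 of 12 higher with separate bounds), endothelial markers to 539 and 841 FPKM (6 of 12), and macrophage and leukocyte markers to 128 and 435 FPKM (10 of the 11 compared, of 13). Epicardial markers summed to 12.7 and 30.3 FPKM (3 of 6), red blood cell markers to 56.6 and 295 FPKM (4 of 5), and atrial markers to 273 and 3208 FPKM (7 of 8). Such sums weigh abundant genes most, and Nppa alone gave 2178 FPKM of the atrial sum under overexpression. Of smooth muscle and pericyte markers, 3 of 10 were higher and 1 was lower with separate bounds, and their sums were 208 and 349 FPKM. Neuronal and glial markers summed to 9.70 and 12.7 FPKM, with 1 of 8 above the minimum and 0 separate. Gata4, Gata6, Tbx20 and Hand2 are also made by cardiac fibroblasts, and Mef2c by endothelium. In bulk RNA fewer cells of a type and less RNA per cell cannot be told apart, and the part of cell mixture in the values of the factors was not tested.

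**Figure D4:**
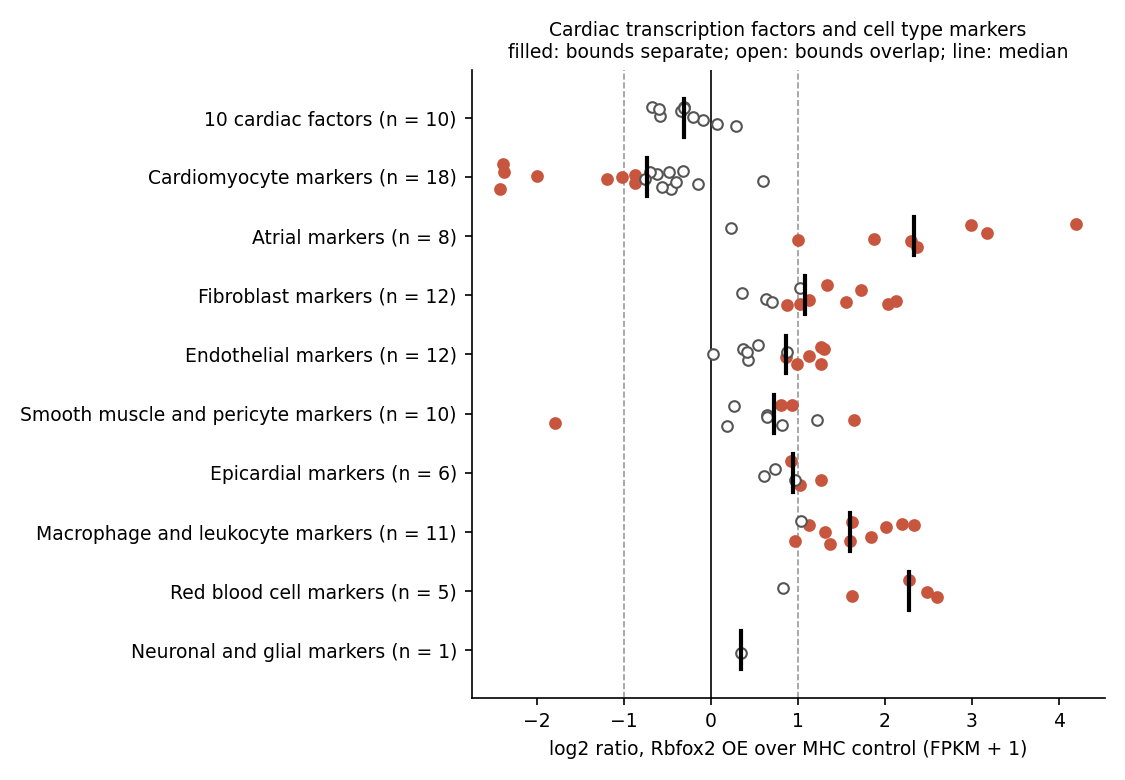
log2 ratio, overexpression over control (FPKM + 1), for the 10 factors and for markers of cell types, 1 point per gene with a mean of at least 1 FPKM. Filled points have separate bounds and black lines are medians; the factors (median -0.31) lie between the cardiomyocyte markers (-0.73) and the markers of the other cell types.

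The factors' relatives were mostly near-silent. Of 25 other genes of the GATA, NK2, T-box, MEF2 and HAND families, 19 had a mean below 1 FPKM, among them Mef2b, Gata5 and Hand1. Of the 6 compared, 1 had separate bounds and 2 were 2-fold apart, all higher under overexpression. Over all genes 6.66% were higher with separate bounds and 6.95% by the 2-fold rule, and with 6 genes nothing is read from the counts. Tbx6, a T-box gene of the early mesoderm, stood at 0.415 FPKM in controls (0.164 to 0.667) and at 23.4 FPKM under overexpression (16.2 to 30.6), above Tbx20 with separate bounds and overlapping those of Tbx5 in the same group. The other, Gata2, an endothelial and blood factor, stood at 5.57 and 13.4 FPKM with overlapping bounds. Tbx3, a repressor that marks the conduction system, stood at 3.19 and 3.34 FPKM.

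A list of 28 other factors known from the heart gave 24 genes to compare. It is not limited to heart muscle, and Tcf21 is also among the fibroblast markers used above. Of these 6 were lower and 1 was higher with separate bounds, against 9.33% and 6.66% of all genes compared, and the median log2 ratio was -0.37. In either direction 29.2% had separate bounds, against 16.0% of all genes compared. By the 2-fold rule 20.8% were apart, against 17.0% of all genes compared. The list was drawn up with earlier results of these data known, and no difference from the background is read from these counts. Genes both lower with separate bounds and 2-fold lower included Esrrg, Nfatc2 and Esrrb. Esrrg and Esrrb are estrogen-related receptors, which drive genes of mitochondrial energy supply. Esrrg stood at 14.9 FPKM in controls (9.46 to 20.4) and 1.66 FPKM under overexpression (0.956 to 2.37), a ratio of 8.98 between the groups. Esrrb stood at 16.0 and 7.15 FPKM, while Esrra, at 68.4 and 49.8 FPKM, had overlapping bounds. Nfatc2, a calcineurin-activated factor, stood at 4.33 and 1.29 FPKM. Irx4, a factor of ventricular muscle, had overlapping bounds, at 12.5 and 7.84 FPKM. With a pseudocount of 0.1 in place of 1 FPKM, 8 of the list were 2-fold apart in place of 5, and with 5 FPKM, 2 were.

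Cofactors and regulators of the factors differed more than the factors themselves in several cases. Of 32 listed, 31 were compared, 6 were lower and 1 was higher with separate bounds, 7 were 2-fold apart, all lower, and the median log2 ratio was -0.32. Either call took in 22.6% of those compared, against 16.0% of all genes for separate bounds and 17.0% for the 2-fold rule, and no difference from the background is read from this. Hopx, a homeodomain-only protein that restrains SRF, stood at 178 FPKM in controls (126 to 230.1) and 22.8 FPKM under overexpression (15.5 to 30.1), a log2 ratio of -2.91. Fhl2, a LIM protein that binds SRF among others, stood at 839 FPKM (603 to 1076) and 141 FPKM (87.0 to 196), a log2 ratio of -2.56. Smyd1, a muscle histone methyltransferase that acts with HAND2 and MEF2C, stood at 238 FPKM (159.5 to 316) and 68.1 FPKM (43.3 to 93.0). Akap6, an anchor at the nuclear envelope for MEF2 and NFAT signalling, stood at 28.9 and 10.7 FPKM with separate bounds. The 3 others 2-fold lower, Kat2b, Hdac5 and Hdac4, had overlapping bounds. Hdac4 and Hdac5, the class II deacetylases that bind MEF2, stood at 8.18 and 3.57 FPKM and at 41.2 and 17.4 FPKM. The gene separately higher was Ankrd1, at 409 FPKM (296 to 521) and 760.4 FPKM (549 to 972), a stress-responsive ankyrin protein of the sarcomere and nucleus. Myocd, the coactivator of SRF, was at 24.1 and 23.6 FPKM.

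Textbook target genes of the factors differed in both directions. Of 32 listed, 29 were compared, and Myh6, Mb and, in controls, Atp2a2 had no estimate. Among the 29, 17 were 2-fold apart, 6 higher and 11 lower under overexpression, and 5 were higher and 12 lower with separate bounds. The list median was -0.68. The list was put together when earlier results of these data were known, and it holds atrial, smooth muscle and cardiomyocyte markers, so its share is not set against the background as evidence.

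The highest ratio of the target list was that of Nppa, the atrial natriuretic peptide and the classic joint target of GATA4, NKX2-5 and TBX5. It stood at 118 FPKM in controls (82.7 to 153) and 2178 FPKM under overexpression (1567 to 2789). Acta1, skeletal actin and an SRF target, stood at 137 FPKM (0 to 293) and 1399.8 FPKM (818 to 1982), but its locus in the table is far wider than the gene and shared with many others, so its values are uncertain. Myl7, the atrial myosin light chain, stood at 48.95 FPKM (33.4 to 64.5) and 395 FPKM (268 to 522). Acta2, smooth muscle actin, and Nppb, the B-type natriuretic peptide, were the other targets that were higher by both criteria, at 43.7 and 139.6 FPKM and at 182 and 403 FPKM. The factors themselves had overlapping bounds, within which smaller changes could not be seen. Any link between their levels and these targets was not tested.

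The targets that were lower included genes of ion transport and signalling. Slc8a1, the sodium-calcium exchanger, stood at 100.5 FPKM (72.2 to 129) and 14.3 FPKM (9.70 to 18.9), and Ryr2, the calcium release channel, at 122 and 22.4 FPKM. Corin, the protease that activates the natriuretic peptide precursor, stood at 58.7 FPKM (41.9 to 75.5) and 4.41 FPKM (2.95 to 5.86), the lowest log2 ratio of the list at -3.46. Kcnh2, a repolarising potassium channel, and Chrm2, the muscarinic receptor of heart muscle, had log2 ratios of -2.16 and -2.13, and Myom2, a protein of the sarcomere M-band, -1.95. Actc1 and Tnni3, the adult contractile targets of SRF and GATA4, had log2 ratios of -1.19 and -1.01, both with separate bounds. Of the genes named from the lists, at least Smyd1, Chrm2, Actc1 and Tnni3 also share their locus with an expressed neighbour. Their values carry the same uncertainty as those of the overlapping factors.

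**Figure D5:**
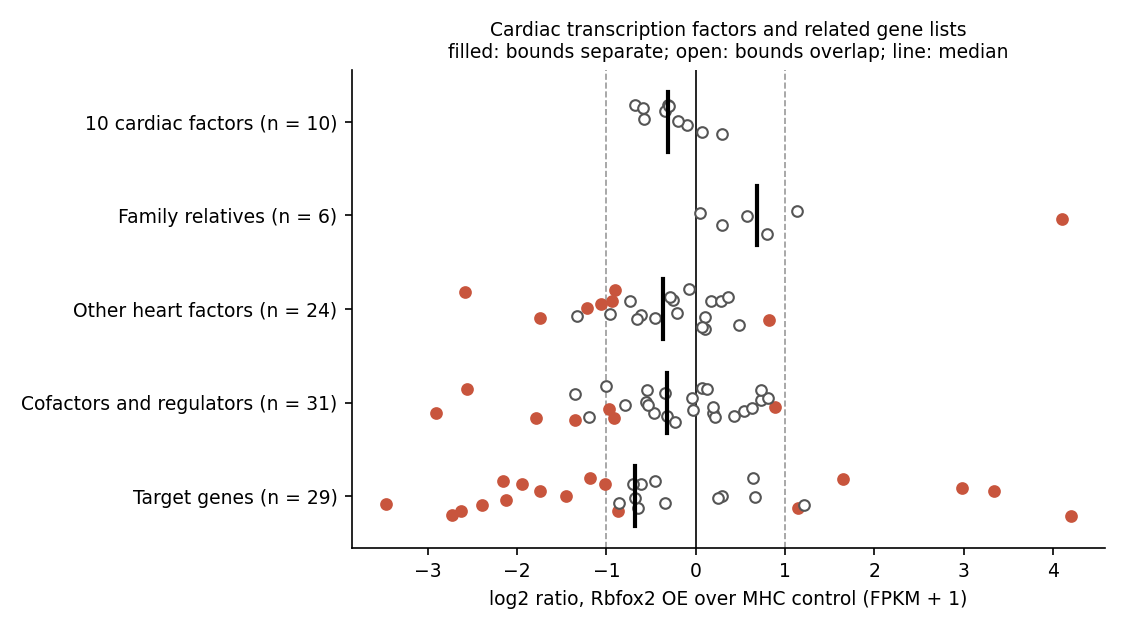
log2 ratio, overexpression over control (FPKM + 1), for the 10 factors, 6 family relatives, 24 other heart factors, 31 cofactors and regulators and 29 target genes, 1 point per gene. Filled points have separate bounds and black lines are medians; the factors span -0.68 to 0.30, and the target genes reach from Corin at -3.46 to Nppa.

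To show elements through which the factors are known to act, the bases before the transcription start are printed for 4 targets with separate bounds that hold a match, 3 higher and 1 lower under overexpression, with build, strand and marking as for Srf. Capitals here mark the GATA element (AGATAA, which may also begin with T or end with G), the NK2 element (TNAAGTG), the T-box element (AGGTGT) and the CArG box. The HAND E-box (CATCTG) and the MEF2 element were searched as well and had no match in these 4 windows.
The windows are chr4:148000472-148000721 (plus strand) for Nppa, chr8:123894776-123895025 (minus) for Acta1, chr11:5898783-5899032 (minus) for Myl7 and chr17:81738388-81738637 (minus) for Slc8a1, whose RefSeq start lies upstream of its locus in the expression table.
Nppa: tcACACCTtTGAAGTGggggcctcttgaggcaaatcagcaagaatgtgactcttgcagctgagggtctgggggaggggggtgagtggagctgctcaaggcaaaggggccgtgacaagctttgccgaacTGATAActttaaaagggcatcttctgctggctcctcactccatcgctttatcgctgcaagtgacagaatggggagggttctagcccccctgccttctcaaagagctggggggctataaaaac
Acta1: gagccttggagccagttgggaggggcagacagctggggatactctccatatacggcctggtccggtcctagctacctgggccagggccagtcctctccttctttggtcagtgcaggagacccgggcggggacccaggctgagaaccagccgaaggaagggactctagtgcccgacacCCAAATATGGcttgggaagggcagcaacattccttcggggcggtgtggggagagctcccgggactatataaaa
Myl7: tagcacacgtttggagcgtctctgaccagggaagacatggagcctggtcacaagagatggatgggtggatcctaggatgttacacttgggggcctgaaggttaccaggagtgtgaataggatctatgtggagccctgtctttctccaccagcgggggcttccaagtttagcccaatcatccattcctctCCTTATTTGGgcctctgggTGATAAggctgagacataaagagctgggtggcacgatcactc
Slc8a1: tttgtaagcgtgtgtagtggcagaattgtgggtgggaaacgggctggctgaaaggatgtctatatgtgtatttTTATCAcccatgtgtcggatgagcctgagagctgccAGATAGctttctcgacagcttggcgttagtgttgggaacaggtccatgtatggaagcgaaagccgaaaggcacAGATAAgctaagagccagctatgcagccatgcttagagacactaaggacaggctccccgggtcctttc

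Nppa holds a T-box element on the opposite strand 248 to 243 bases before the start, an NK2 element right beside it at 241 to 235 bases, and a GATA element at 122 to 117 bases, and none of these matches overlap. Acta1 holds 1 CArG box at 73 to 64 bases. Myl7 holds a CArG box at 61 to 52 bases and a GATA element at 42 to 37 bases, and Slc8a1 holds 3 GATA elements, the nearest at 68 to 63 bases. The printed windows were picked because they hold a match, so finding elements before both higher and lower genes says nothing about direction. Among the targets not printed, Actc1, also lower with separate bounds, holds a CArG box. Other target windows held no exact match. Among them are those of Acta2, higher with separate bounds, and of Ryr2 and Kcnh2, both lower with separate bounds. Near matches were not counted: the Acta2 window holds CCCTATATGG and CCTTGTTTGG, each 1 base off the CArG pattern. Such short elements are common: of 32851 windows of 250 bases in the table, 26.5% hold a GATA element, 14.4% the HAND E-box, 11.8% the T-box element, 10.1% the NK2 element, 2.92% the MEF2 element and 1.47% a CArG box.

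The table held 9 windows for 7 of the factors (Nkx2-5, Tbx20, Mef2a, Mef2c, Mef2d, Hand2 and Srf), with 3 starts for Mef2c, and all elements were searched in each. Matches were found in 4 of these 9 windows: the CArG boxes of Srf, 2 GATA elements and an E-box in Hand2, a T-box element at 1 start of Mef2c and an E-box at another. The windows of Nkx2-5, which had the highest log2 ratio of the factors, and of Tbx20, Mef2a and Mef2d, which had the lowest, all held 0 matches. A match or its absence describes only the letters in these windows.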

How the data were processed

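The samples were cardiomyocyte RNA libraries, grouped by genotype label. The authors' deposited table holds FPKM values, 1 per gene and group, with bounds and a status, estimated with Cuffdiff per the file headers. The submitters' processing notes list Cuffdiff 2.2.1, STAR 2.4.2a, Trimmomatic, Picard 1.119, HTSeq and others, with the builds GRCm38 and mm10. The level of the bounds, the annotation release and the strand setting are not given in the sources used here. Depth is unknown, and columns of per-sample values number 0.

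Rows sharing a name (110 names) were summed. The 11695 genes with status OK in both groups and a mean no lower than 1 FPKM were compared by log2 ratio (pseudocount 1 FPKM), with a 2-fold threshold, and by separate bounds. The planned limma fit needs values per library and was not run. No test was made. Coordinates and strands came from GENCODE M21 (GRCm38), which held 99.2% of identifiers. Promoters came from RefSeq (GRCm38.p6).

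The factors and gene lists were chosen with earlier results of these data known. All 10 factors were named. From the other factor, cofactor and target lists, genes with separate bounds and a 2-fold difference were named, at most 6 per direction and list; some genes so chosen are not reported here, and other genes named for their role were chosen after values were seen. Calculations used Python 3.11.15 and pandas 2.3.3 and were tested on simulated data.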

Additional observations from a re-analysis of the deposited data

How the results depend on the processing

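No paired analysis was possible because libraries carry no values of their own here, and for the same reason none could be left out. Another pseudocount could not alter the count of factors with separate bounds, which is read from the bounds alone. Neither could the other filters, as the lowest mean of a factor was 11.8 FPKM. That count stayed at 0 with the median log2 ratio of all genes set to 0, and with rescaling that left out mitochondrial and abundant genes. Set against the median cardiomyocyte marker, a setting chosen after the data were seen, it was 1, the count of 2-fold factors was 1 and the count of factors lower in Rbfox2 OE was 0 in place of 8. A 1.5-fold threshold gave 2 factors, Tbx20 and Mef2d, and a 4-fold threshold 0. Mef2a missed the 1.5-fold threshold only through the added 1 FPKM, as its FPKM values alone have a ratio of 1.51 between the groups. The median log2 ratio of the factors ran from -0.31 (pseudocount of 0.1) to -0.16 (rescaled) and turned to 0.42 against the cardiomyocyte markers. Each of the 50 alternative log2 ratios of single factors stayed within the ratios that the deposited bounds allow. The shifts tried were smaller than the distance from each ratio to the ends of that range. This outcome was thus fixed in advance and says nothing about stability. A pseudocount of 5 FPKM, which shrinks the ratios of low genes, gave 1 family relative and 2 other heart factors 2-fold apart in place of 2 and 5, and a pseudocount of 0.1 gave 8 other heart factors. Cofactors ranged from 6 to 8 and target genes from 15 to 17. The unknown spread between libraries limits every value.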
